A study of Zea mays subsp. mays with 2 samples.

Results

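Compact loci of the maize seedling transcriptome, with a span over 500 and up to 1000 bases, were compared between roots and shoots. They were chosen by position alone: a locus had to lie on chromosomes 1 to 10, be alone at its position in the deposited table, and have an end minus start over 500 and up to 1000 bases. The rule gave 1796 loci, 6.05% of the 29674 listed and 7.32% of the 24534 nuclear loci alone at their position. A further 34 nuclear loci of that span shared a position and were left out, as were 9 loci outside the 10 chromosomes. The shortest member spanned 502 bases and the median member 778 bases.

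Roots and shoots came from plants of the B73 inbred line, the source of the maize reference genome, grown in a chamber without any stated treatment and harvested 14 days after germination. Polyadenylated RNA of each organ was read as 1 non-directional paired-end library, so the organ is the only labelled difference and no spread between plants was measured. No p-value between organs is therefore given, and every difference compares these 2 libraries. Levels are the deposited FPKM, in which fragments are divided by transcript length and library size.

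A locus in this table is a stretch of genome where assembled transcripts overlap, so its span includes any intron. Short loci in plant genomes can hold genes with few or no introns, short coding genes, noncoding RNAs, or pieces of a longer transcript whose coverage was broken in assembly. The root anchors the plant and takes up water and mineral nutrients, and the shoot of a seedling is mostly green leaf tissue that photosynthesises, so the organs use partly different genes. The table names no genes and tells neither strand nor coding status, so members are given by position on B73 RefGen_v2, with end minus start as their span. An annotation of that assembly was not used here, and exon, intron and untranslated region are not assigned.

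The organ labels and the table as a whole were checked briefly. All 15 loci of the plastid genome, which encodes parts of the photosynthetic machinery, were higher in shoot, with a summed level of 11.4 FPKM in roots against 328 FPKM in shoots. Each locus listed was above 1 FPKM in at least 1 organ. Depth was estimated from the steps between low values, which mark what a single fragment adds. At 1 FPKM, the shortest member, of 502 bases, rested on about 35.5 fragments in root and 31.9 in shoot. A member of 1000 bases at that level rested on about 101 fragments in root and 88.2 in shoot. The exact 95% Poisson interval at 1 FPKM and the median span was 0.782 to 1.26 FPKM in roots against 0.768 to 1.28 FPKM in shoots. These intervals cover counting error only, and an intron within the span would lower the fragment numbers.

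Compact loci were mostly weakly expressed, with a long upper tail. Their median level was 4.26 FPKM in root, with quartiles of 1.34 and 19.7, and 4.53 FPKM in shoot, with quartiles of 1.44 and 17.8. All listed loci had medians of 9.19 FPKM in roots against 9.84 FPKM in shoots. At the upper end compact loci held the larger share. A level of 100 FPKM was reached by 8.57% of compact loci in root and 9.02% in shoot, against 6.51% and 6.21% of all listed loci. The table's own limit of 1 FPKM in the higher organ sets the lower end of these distributions.

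**Figure D1:**
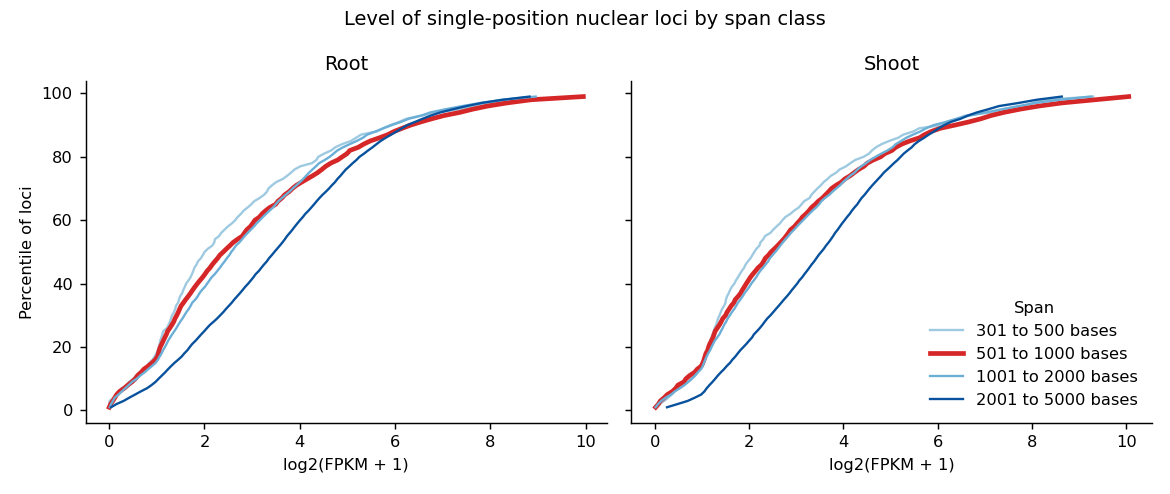
Cumulative level of nuclear loci alone at their position, root on the left and shoot on the right, with log2(FPKM + 1) on the horizontal axis, the percentile of loci on the vertical axis and 1 line per span class. The thick line of the compact loci lies near the lines of the neighbouring span classes and left of the class over 2000 and up to 5000 bases up to high levels, where the lines cross.

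A single locus dominated the summed level. The member on chromosome 3 from 100803594 to 100804470 had 186084 FPKM in roots against 109549 FPKM in shoots, which was 65.9% of the members' root sum and 51.3% of their shoot sum. It stood far from other transcription in the table, with gaps of 216411 and 931495 bases to its neighbours. With it, compact loci made up 14.1% of all summed FPKM in root and 9.84% in shoot. Without it they made up 5.29% of the remainder in root and 5.05% in shoot. How reads with several matches were counted is not given in the sources used here.

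The next most abundant members were close to equal in the organs or differed by less than 4-fold. On chromosome 10, the member from 125829639 to 125830637 had 6481 FPKM in roots against 6464 FPKM in shoots. A member on chromosome 1 from 218772962 to 218773772 had 6057 FPKM in roots against 6833 FPKM in shoots. These 2 were also the most abundant of the members within 0.2 of equality on the log2 scale. On chromosome 4, the member from 203179479 to 203180020 had 4981 FPKM in roots against 1988 FPKM in shoots, 2.51-fold higher in root. Shoot was the higher organ at the member on chromosome 6 from 48548123 to 48549074, with 3807 FPKM in roots against 8027 FPKM in shoots, and at the one on chromosome 6 from 135413218 to 135414134, with 700 FPKM in roots against 2117 FPKM in shoots. Of the 20 most abundant members of each organ, 9 were shared, 45% of each list. The same overlap was not computed over all listed loci.

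The other 3 of the 5 most abundant balanced members were lower, and their neighbours varied. From 139187822 to 139188532 on chromosome 9, the level was 1007 FPKM in roots against 1056 FPKM in shoots. The next listed locus, 3362 bases on, was also a member and stood at 163 FPKM in roots against 228 FPKM in shoots. On chromosome 3, the member from 219292978 to 219293743 had 616 FPKM in roots against 678 FPKM in shoots. The last of the 5, on chromosome 10 from 116057159 to 116058081, had 525 FPKM in roots against 493 FPKM in shoots. Its neighbour after a gap of 58234 bases was far from balanced, at 49.8 FPKM in roots against 0.0461 FPKM in shoots.

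Levels in root and shoot, as log2(FPKM + 1), had a Pearson coefficient of 0.69 across the 1796 members, against 0.76 across the 29674 loci. Spearman coefficients were 0.60 for members and 0.76 for all loci. All points come from the same pair of libraries, and loci are not independent replicates. Lower level goes with larger counting error, and the part this plays was not tested. Both organs reached 1 FPKM at 1245 members (69.3%), against 83.3% of all listed loci. Root alone reached it at 255 members (14.2%), against 6.48% of all listed loci. Shoot alone reached it at 296 members (16.48%), against 10.3%. Shares in the neighbouring span classes were similar. Loci spanning over 300 and up to 500 bases had 14.1% in root alone and 18.3% in shoot alone, and those over 1000 and up to 1500 had 14.7% and 16.4%.

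Organ bias was called at a 4-fold difference, that is, at 2 or more on log2((root FPKM + 1) / (shoot FPKM + 1)), a scale that understates the change of low loci. By this call 132 members (7.35%) were higher in root, against 3.52% of all listed loci. In the other direction 153 members (8.52%) were higher in shoot, against 6.79%. Root therefore took 46.3% of the calls among compact loci and 34.2% among all listed loci. The other 1511 members lay between. The median log2 ratio was 0.06 over members and 0.06 over all listed loci, so the distribution was wider without a shift of its middle. Its quartiles were -0.63 and 0.80 over members and -0.48 and 0.51 over all listed loci. In RNA of whole organs, fewer cells of a type and less RNA per cell cannot be told apart.

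**Figure D2:**
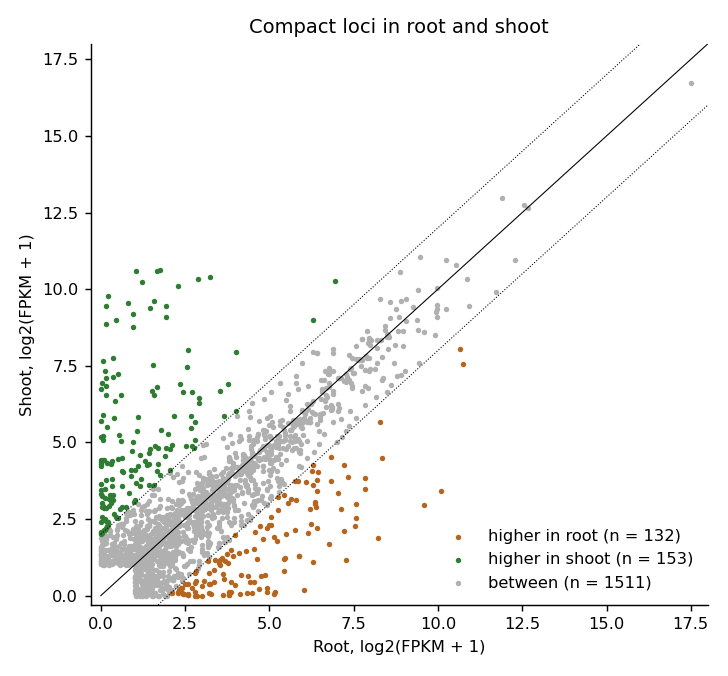
Level of each of the 1796 compact loci in root, on the horizontal axis, and in shoot, on the vertical axis, both as log2(FPKM + 1), with 1 point per locus, a solid line at equality and dotted lines at 4-fold. The 132 loci called higher in root lie below the lower dotted line, and the 153 called higher in shoot lie above the upper one and reach farther from equality.

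Large differences lay mainly on the shoot side. At 32-fold, or 5 on the same log2 scale, 12 members (0.668%) were higher in root, against 0.219% of all listed loci. At that fold 41 members (2.28%) were higher in shoot, against 1.08%. Compact loci, 7.32% of nuclear single-position loci, made up 22.2% of the 54 that were 32-fold higher in root. They made up 13.9% of the 294 that were 32-fold higher in shoot. The 2131 loci spanning over 1000 and up to 1500 bases held more, 15 of the 54 and 68 of the 294. Large differences were therefore not particular to compact loci.

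The called members covered a wide range of levels. Those higher in root were at 3.34 to 1711 FPKM in root, with a median of 25.2, and at 0 to 262 FPKM in shoot, with a median of 1.27. Those higher in shoot were at 0 to 122 FPKM in root, with a median of 0.559, and at 3.03 to 1585 FPKM in shoot, with a median of 25.5. Thus the higher organ had a similar median in both directions, and the lower organ was the one that differed. Of the root-biased members, 74 (56.1%) were still at 1 FPKM or more in shoot. Of the shoot-biased members, 65 (42.5%) were still at 1 FPKM or more in root. Without the pseudocount, the median fold was 17.99 over the 129 root-biased members above 0 in shoot and 37.0 over the 142 shoot-biased members above 0 in root. These values were not computed for called loci of other spans, so they are not read as particular to compact loci.

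Depth did not limit the higher value of these calls, but it did limit many of the lower ones. The fewest estimated fragments behind the higher value were 185 for a root-biased member and 108 for a shoot-biased one. Behind the lower value, 30 root-biased members rested on under 10 shoot fragments and 48 shoot-biased members on under 10 root fragments. Folds of those members are imprecise.

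By length, root bias was lowest in the shortest compact loci. Among members split into classes 100 bases wide, the shortest class had 13 of 308 members (4.22%) biased to root and 24 (7.79%) biased to shoot. The longest class had 41 of 422 (9.72%) biased to root and 37 (8.77%) biased to shoot. The classes between ran from 5.99% to 8.85% for root and from 5.83% to 11.2% for shoot, without a steady order. Outside the limits, 2.66% of loci spanning over 300 and up to 500 bases were higher in root, and 8.82% of those over 1000 and up to 1500. For shoot these shares were 2.81% and 10.7%. Across the lower limit both shares were thus larger on the compact side, and across the upper limit the longest compact class and the class beyond it were within 2 percentage points of each other. Over 2000 and up to 5000 bases the root share was 3.13% and the shoot share 6.66%. Median levels in these classes also differed, from 3.01 to 10.1 FPKM in root and from 3.33 to 10.6 FPKM in shoot.

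**Figure D3:**
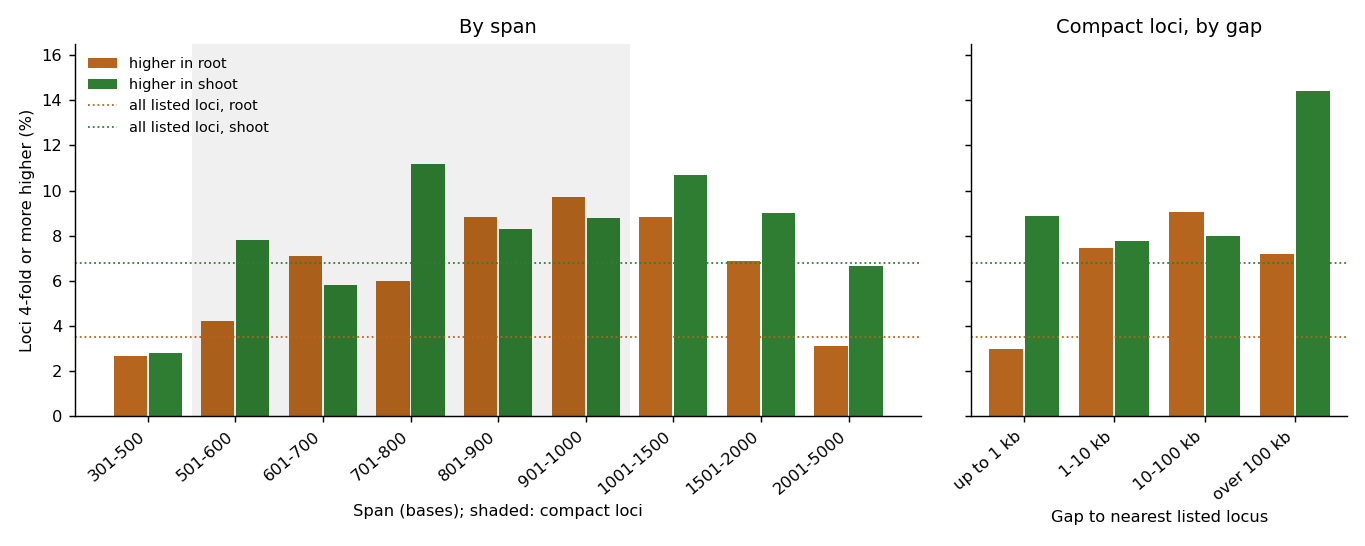
Share of loci 4-fold or more higher in root (left bar of each pair) or in shoot (right bar), in percent, by span in bases for nuclear single-position loci on the left and by the gap to the nearest listed locus for compact loci on the right, with dotted lines at the shares of all listed loci. Root shares are lowest at spans up to 500 bases and over 2000 bases, and among compact loci at gaps up to 1 kb.

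The share of bias against that of all listed loci depended on level. At a mean of root and shoot of 1 to 3 FPKM, the class with the most members, 3.34% of 479 were higher in root, against 1.80%, and 3.55% were higher in shoot, against 3.35%, so the shoot shares were close. With a mean of root and shoot of 3 to 10 FPKM, 9.45% of 434 members were higher in root, against 4.91% of all listed loci at that level, and 10.8% were higher in shoot, against 7.35%. At 30 to 100 FPKM, 15.3% of 203 members were higher in root, against 3.67%, and 13.3% were higher in shoot, against 8.41%. Below a mean of 1 FPKM none of 204 members was called, nor any other listed locus, because the pseudocount of 1 keeps the ratio of such loci under 4-fold. Above a mean of 100 FPKM the shares of members were close to those of all loci, at 5.73% against 4.47% for root and 14.6% against 14.0% for shoot.

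Members higher in root were led by 10 loci on 7 chromosomes, at 34.2 to 1080 FPKM in roots against 0.0405 to 9.66 FPKM in shoots. They were ranked by the log2 ratio with the pseudocount, among members above 0 in both organs. The highest ranked, XLOC_013890 on chromosome 3 from 130520292 to 130520808, had 1080 FPKM in roots against 9.66 FPKM in shoots, 112-fold higher in root. XLOC_007790 on chromosome 10 from 138855516 to 138856421 had 769 FPKM in roots against 6.72 FPKM in shoots, 114-fold higher in root. On chromosome 4, the member from 2559029 to 2559837 had 300.2 FPKM in roots against 2.64 FPKM in shoots, again 114-fold. All 3 were abundant in root and still above 1 FPKM in shoot, on at least 176 estimated shoot fragments.

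Lower in level, but with the largest folds of the 10, were 2 members on chromosome 9 that followed each other in the table. From 63685017 to 63685681 the level was 34.2 FPKM in roots against 0.0405 FPKM in shoots, 846-fold higher in root. From 63895532 to 63896324 it was 64.7 FPKM in roots against 0.140 FPKM in shoots, 463-fold higher in root. The shoot values rested on about 2.03 and 9.03 fragments, so neither fold is precise, though both loci were near the floor of detection in shoot. They lay 209851 bases apart with no listed locus between them.

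The list held 4 more members that were 43.9-fold to 68.7-fold higher in root. The member on chromosome 6 from 129703140 to 129704081 had 184 FPKM in roots against 3.81 FPKM in shoots. The member on chromosome 1 from 235757730 to 235758602 had 146 FPKM in roots against 3.33 FPKM in shoots. For chromosome 2, from 130147639 to 130148443, the values were 108 FPKM in roots against 2.22 FPKM in shoots. The last, on chromosome 9 from 124665810 to 124666646, had 76.9 FPKM in roots against 1.12 FPKM in shoots. The flank after each of these 4 was also higher in root by the same call, and for 3 of them that flank was itself a compact locus. These flanks lay 75134 to 129561 bases away. On chromosomes 1, 6 and 9 the flank before was nearer, at 15835 to 21457 bases, and was not called. On chromosome 2 the flank before, 168747 bases away, was higher in root too.

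By level instead of fold, the 2 highest root-biased members were others, and XLOC_013890 followed them at 1080 FPKM in roots. On chromosome 5, the member from 166576460 to 166577306 had 1711 FPKM in roots against 186 FPKM in shoots, 9.19-fold higher in root. On chromosome 6, the member from 39303098 to 39303722 had 1625 FPKM in roots against 262 FPKM in shoots, 6.19-fold higher in root. Both were abundant in each organ, and they were picked after their values were seen.

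Members higher in shoot were led by 10 loci on 5 chromosomes, at 0.102 to 2.39 FPKM in roots against 461 to 1585 FPKM in shoots. Their folds ran from 628 to 6805 without the pseudocount, a range that overlapped with the 43.9 to 846 of the 10 ranked toward root. First was XLOC_027278 on chromosome 6 from 1340367 to 1341144, at 0.169 FPKM in roots against 879 FPKM in shoots, 5200-fold higher in shoot. Second was XLOC_011543 on chromosome 2 from 169557368 to 169558305, at 1.07 FPKM in roots against 1527 FPKM in shoots, 1424-fold higher in shoot. The largest fold belonged to the member on chromosome 3 from 230607211 to 230607984, at 0.102 FPKM in roots against 694 FPKM in shoots, with about 7.23 fragments behind the root value.

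Of the others, 4 stayed at 0.731 to 2.39 FPKM in root and reached at least 746 FPKM in shoot. On chromosome 7, the member from 38025259 to 38026202 had 2.39 FPKM in roots against 1585 FPKM in shoots. The one on chromosome 3 from 192033393 to 192034086 had 2.16 FPKM in roots against 1550 FPKM in shoots. On chromosome 6, the member from 54213165 to 54213985 had 1.32 FPKM in roots against 1204 FPKM in shoots. The fourth, on chromosome 3 from 138433028 to 138433963, had 0.731 FPKM in roots against 746 FPKM in shoots. Their root values rested on about 67.2 to 222 estimated fragments, or fewer with an intron in the span. The lowest of them, at 0.731 FPKM, was under the detection limit of 1 FPKM.

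The remaining 3 had at most 585 FPKM in shoot. The member on chromosome 6 from 1373128 to 1373997 had 0.361 FPKM in roots against 508 FPKM in shoots, second after the highest ranked member by position. A further member on chromosome 3, from 138123397 to 138124280, had 0.931 FPKM in roots against 585 FPKM in shoots. It began 76 bases after a locus at 15.9 FPKM in roots against 15.9 FPKM in shoots, so adjacent loci differed sharply in bias. The shortest of the 10, on chromosome 10 from 145097394 to 145097904, had 0.111 FPKM in roots against 461 FPKM in shoots, with about 4.07 root fragments.

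Some members were listed at 0 in an organ. A 0 in root was listed for 26 members (1.45%), against 0.718% of all listed loci, and a 0 in shoot for 14 (0.780%), against 0.31%. Most were low in the other organ as well: 15 of the 26 were under 3 FPKM in shoot and 11 of the 14 under 3 FPKM in root. The highest was on chromosome 1 from 3000302 to 3000970, listed at 0 in roots but at 105 FPKM in shoot. Next came chromosome 5 from 176799486 to 176800117, listed at 0 in roots but at 35.5 FPKM in shoot. On the root side the highest was on chromosome 3 from 15472521 to 15473451, at 7.04 FPKM in roots but listed at 0 in shoots. A listed 0 can be a failed estimate, so no fold is given for these loci.

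Compact loci had neighbours at ordinary distances. No listed position on chromosomes 1 to 10 overlapped another, members included. The gap from a member to its nearest listed locus had a median of 9204 bases, with quartiles of 2195 and 37234, against a median of 10787 bases over the 26802 nuclear positions. A gap of 1000 bases or less was found for 304 members (16.9%), against 16.2% of positions, and one over 100000 bases for 125 (6.96%), against 7.73%. The nearest locus was usually longer, with a median span of 2827 to 3558 bases across gap classes, and it was the more abundant of the pair for 55.2% to 59.2% of members.

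The share of members higher in root was smallest where another locus lay close. Of the 304 members within 1000 bases of a listed locus, 9 (2.96%) were higher in root. The share was 7.46% at gaps over 1000 and up to 10000 bases, 9.07% over 10000 and up to 100000 bases, and 7.20% beyond. Over all nuclear positions the same 4 shares were 1.96%, 3.67%, 4.19% and 4.05%, so the smallest share stood at the shortest gaps there too. For shoot the member shares were 8.88% and 7.78% in the shorter classes, then 60 of 750 members and 18 of 125 (14.4%). Over all nuclear positions the shoot shares were 7.21%, 6.48%, 7.15% and 8.10%, so members stood within 2 percentage points of them except beyond 100000 bases. Median levels of members were 2.99 FPKM in roots against 4.70 FPKM in shoots at the shortest gaps, and 4.97 FPKM in roots against 4.44 FPKM in shoots in the next class.

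The log2 ratio of a member resembled that of its nearest locus mainly at short range. Within 1000 bases the Spearman coefficient between them was 0.48 and the Pearson coefficient 0.32, over 304 members. In the next class, up to 10000 bases, these were 0.21 and 0.18 over 617 members, and up to 100000 bases they were 0.17 and 0.20 over 750. Beyond 100000 bases they were 0.07 and 0.01 over 125. Each pair shares its libraries, and the reads carry no strand. Members that were each other's nearest locus entered from both sides, so the pairs are not all distinct. At gaps up to 1000 bases, 3 of the 9 root-biased and 5 of the 27 shoot-biased members had a nearest locus called the same way, and 0 had one called the opposite way. Neither these counts nor the coefficients were computed over all nuclear positions.

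**Figure D4:**
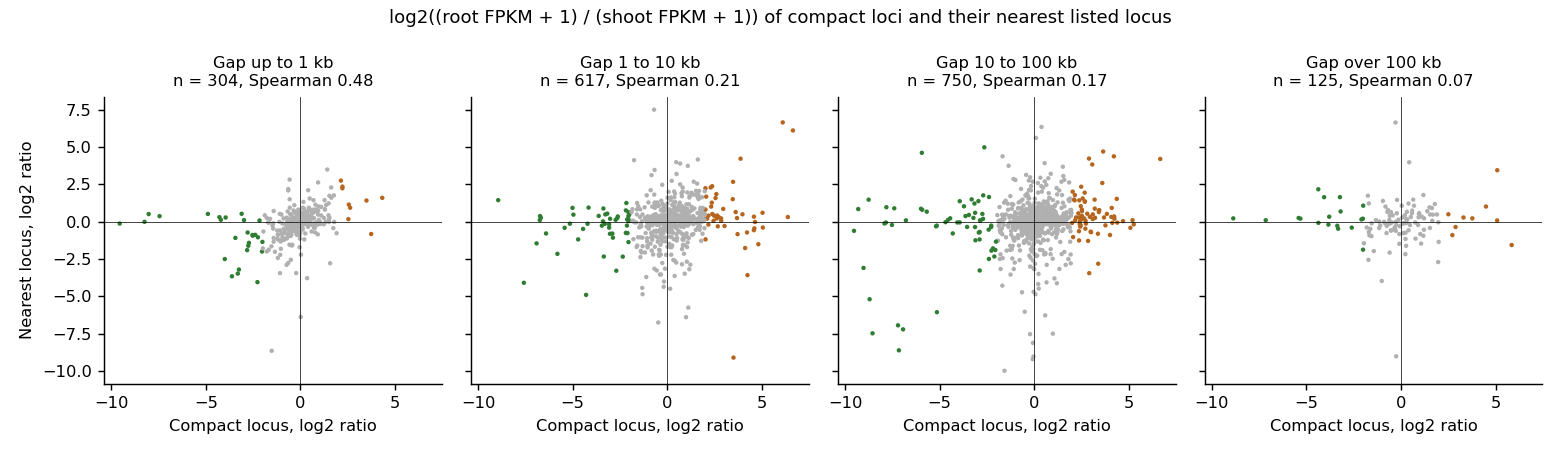
The log2((root FPKM + 1) / (shoot FPKM + 1)) of each compact locus, on the horizontal axis, and of its nearest listed locus, on the vertical axis, in 4 panels by the gap between them, coloured by the call of the compact locus (brown higher in root, green higher in shoot, grey between). The points follow the diagonal loosely up to 1 kb, with a Spearman coefficient of 0.48, and spread along the horizontal axis at wider gaps.

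Considering the listed positions directly before and after, 39 of the 132 root-biased members (29.5%) had at least 1 root-biased flank. Over all nuclear positions 7.05% had such a flank, and among the 977 positions higher in root 21.8% had it. For shoot, 32 of the 153 biased members (20.9%) had a shoot-biased flank. Over all positions 13.5% had one, and among the 1880 positions higher in shoot 18.4%. With each library rescaled to the same sum, the shoot count was 18 of 113 members (15.9%), against 15% of positions. Flanks biased the opposite way were found for 11 root-biased members (8.33%) and 4 shoot-biased members (2.61%), against 10.1% and 5.59% of all nuclear positions with the same call. Most biased members thus stood alone among loci that were not called, and both flanks shared the member's call in 4 cases for root and 1 for shoot. Among biased members with a flank within 10000 bases, that close flank shared the call for 16 of 55 toward root (29.1%) and 17 of 75 toward shoot (22.7%). Over all nuclear positions these shares were 14.5% of 408 and 13.8% of 884.

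A trio of consecutive compact loci higher in root lay on chromosome 10. From 138831769 to 138832497 the level was 57.7 FPKM in roots against 1.46 FPKM in shoots. The next listed locus was the member at 769 FPKM in roots against 6.72 FPKM in shoots described above. After a gap of 2204 bases followed the third, from 138858625 to 138859518, at 153 FPKM in roots against 1.24 FPKM in shoots, 123-fold higher in root. The last 2 had near-equal spans of 905 and 893 bases. Bias in this stretch was not uniform, since a locus from 138806637 to 138807701, which at 1064 bases was just too long for the rule, was at 0.423 FPKM in roots against 751 FPKM in shoots. Beyond the trio, the locus from 138882227 to 138887443 had 22.5 FPKM in roots against 11.9 FPKM in shoots.

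The shoot counterpart lay near the start of chromosome 6. Between the members at 1340367 and 1373128, which were at 879 and 508 FPKM in shoot, the single listed locus was at 0.547 FPKM in roots against 272 FPKM in shoots, from 1343663 to 1345071. Directly before the first member, across a gap of 987 bases, the locus from 1334568 to 1339380 had 13.5 FPKM in roots against 14.8 FPKM in shoots. The change from balanced to shoot-biased thus fell between adjacent loci. Of the 12 positions within 200 kb of the first member, these 3 were higher in shoot and 9 were not called.

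**Figure D5:**
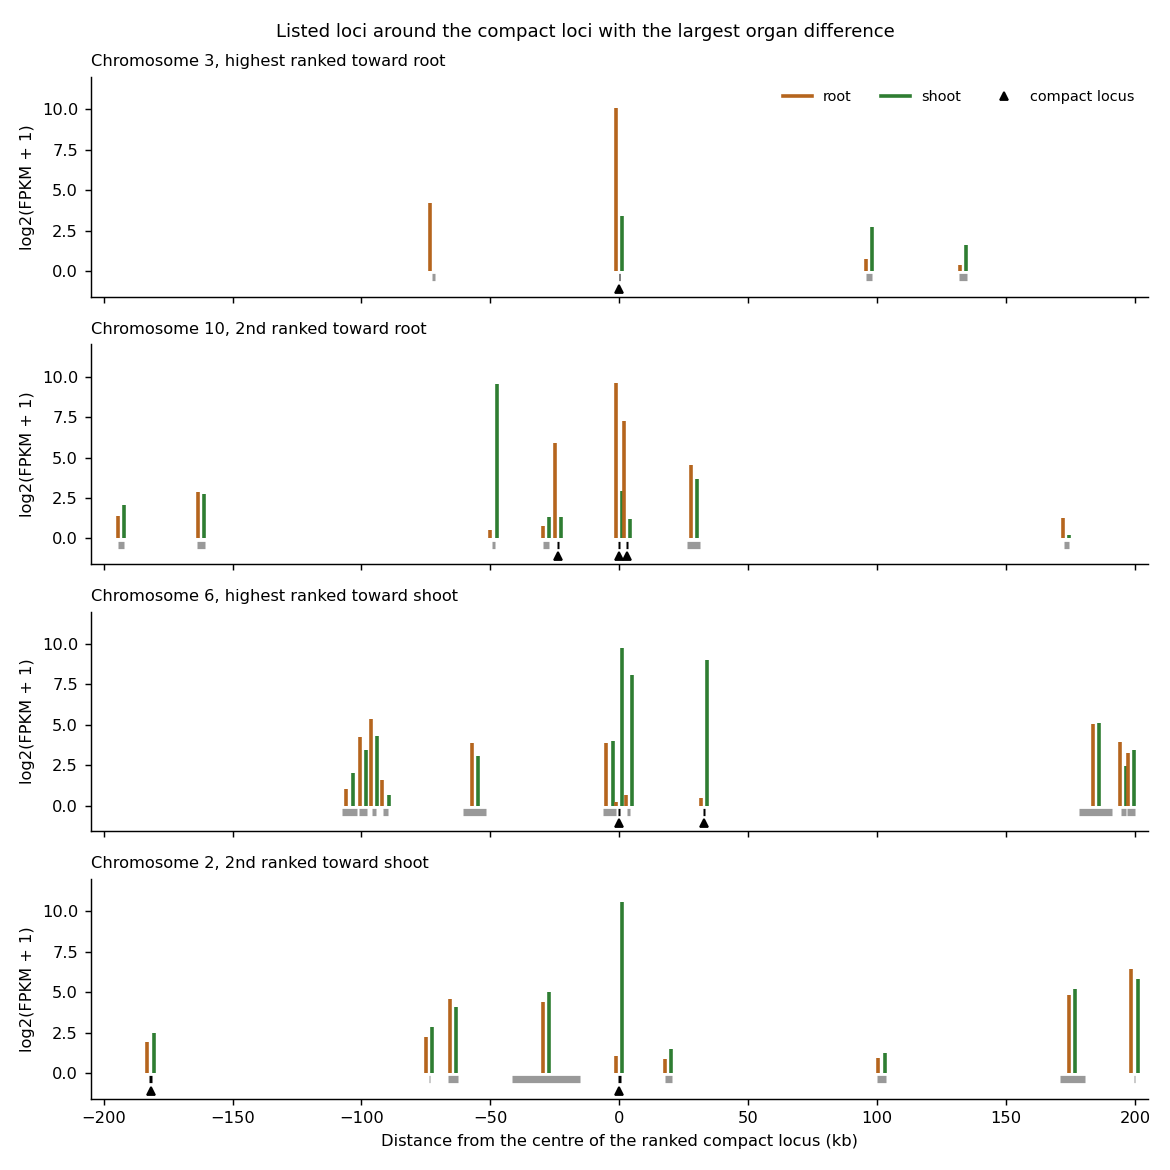
Listed loci within 200 kb of the 2 compact loci ranked highest toward root (upper panels) and toward shoot (lower panels), with the distance from the ranked locus in kb on the horizontal axis and log2(FPKM + 1) as paired lines, root left of shoot, on the vertical axis; bars under the axis mark the extent of each locus and triangles the compact loci. Biased loci stand next to balanced ones, and the trio on chromosome 10 and the 3 shoot loci on chromosome 6 share their direction.

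In the other 2 neighbourhoods fewer positions shared the call of the ranked member. Around the chromosome 3 member at 1080 FPKM in root, 3 other positions were listed within 200 kb. Of these, the locus from 130447796 to 130449001 had 17.3 FPKM in roots but was listed at 0 in shoots, which was also called higher in root, and the one from 130616322 to 130618626 had 0.674 FPKM in roots against 5.48 FPKM in shoots. Around the chromosome 2 member at 1527 FPKM in shoot, 8 other positions were listed and 0 were called in either direction. Its flanks were at 20.2 FPKM in roots against 31.4 FPKM in shoots before it and at 0.854 FPKM in roots against 1.83 FPKM in shoots after it.

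Pairs of compact loci that followed each other within 10000 bases numbered 59. In 4 pairs both were higher in root, in 2 both were higher in shoot, and in 0 they were called in opposite directions. In 16 pairs 1 member was called, and in 37 neither. With 7.35% of members called toward root and 8.52% toward shoot, 0 opposite pairs among 59 says little. The log2 ratios within these pairs had a Pearson coefficient of 0.69. Neither the counts nor this coefficient were computed over all neighbouring positions within 10000 bases, so they are not read as particular to compact loci. Near-equal spans, within 20 bases, were found in 6 of the 59.

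Besides the chromosome 10 trio, 3 root-biased pairs were found. Farther along chromosome 10, a pair starting at 144675138 and 144678721, with a gap of 2642 bases, was at 73.7 and 83.8 FPKM in roots against 4.10 and 3.57 FPKM in shoots. On chromosome 5, a pair starting at 176870542 and 176876102 was at 53.8 and 82.0 FPKM in roots against 7.63 and 6.46 FPKM in shoots. The pair on chromosome 2, starting at 6452559 and 6458328, was at 16.1 and 84.2 FPKM in roots against 1.61 and 12.7 FPKM in shoots. In each of the 3 pairs the members were at 1 FPKM or more in both organs, with folds of 6.64 to 23.5.

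The 2 shoot-biased pairs differed in level within the pair. On chromosome 2, the member from 5922086 to 5922849 was listed at 0 in roots but at 18.6 FPKM in shoot, and the member 1394 bases on, from 5924243 to 5925188, had 4.93 FPKM in roots against 175 FPKM in shoots. On chromosome 4, members starting at 3473982 and 3477320 were at 0.183 and 2.03 FPKM in roots against 6.67 and 28.4 FPKM in shoots. They closed a run of 4 consecutive shoot-biased positions, of which the first, from 3453260 to 3459615, had 6.39 FPKM in roots against 69.9 FPKM in shoots.

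Runs of 3 or more consecutive positions with the same call and at least 1 compact locus numbered 6 for root, with 10 compact loci, and 6 for shoot, with 8. The longest had 4 positions in each direction. Runs without a compact locus were not counted, so these numbers do not tell whether compact loci lie in runs more often than other loci. On chromosome 1, a root run from 235757730 to 235864152 held the member at 146 FPKM in root, a second member at 28.4 FPKM in roots against 0.586 FPKM in shoots with a near-equal span of 867 against 872 bases, and a locus of 1225 bases at 227 FPKM in roots against 10.004 FPKM in shoots. A shoot run on chromosome 1 from 290394983 to 290449044 ended in a member of 934 bases at 2.84 FPKM in roots against 546 FPKM in shoots. The loci before it were at 0 to 0.142 FPKM in roots against 42.9 to 387 FPKM in shoots, and 2 of the 3 were under 200 bases long. On chromosome 2, a shoot run from 100832256 to 101091419 opened with a member at 0.0390 FPKM in roots against 35.7 FPKM in shoots.

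Adjacent positions also held opposite calls. The closest to a root-biased member lay on chromosome 10, where the member from 144623771 to 144624478 had 191 FPKM in roots against 7.02 FPKM in shoots. Across a gap of 4221 bases before it, the locus from 144614243 to 144619550 had 22.0 FPKM in roots against 268 FPKM in shoots. On chromosome 1, the member from 281708665 to 281709631 had 16.8 FPKM in roots against 0.578 FPKM in shoots, followed after 5586 bases by a locus of 297 bases listed at 0 in roots but at 543 FPKM in shoot. Among shoot-biased members the closest opposite flank was 45331 bases away, before the member on chromosome 1 from 234387874 to 234388845, at 1.06 FPKM in roots against 11.8 FPKM in shoots. That flank was at 80.4 FPKM in roots against 1.59 FPKM in shoots.

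Other compact loci kept a balanced level between biased flanks. On chromosome 4, the member from 59006768 to 59007546 had 1.83 FPKM in roots against 1.66 FPKM in shoots, while the flanks were at 4.67 and 4.16 FPKM in roots against 22.3 and 24.3 FPKM in shoots. On chromosome 3, the member from 216934056 to 216935013 had 3.35 FPKM in roots against 2.29 FPKM in shoots, between flanks at 12.2 and 74.0 FPKM in roots against 2.27 and 9.28 FPKM in shoots. Also on chromosome 3, the member from 3915299 to 3916289 had 17.96 FPKM in roots against 23.1 FPKM in shoots between shoot-biased flanks. The gaps to these flanks were 6868 bases or more.

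At the span limits, levels overlapped with those of loci just outside. The 4 members spanning up to 503 bases were at 0.343 to 8.74 FPKM in roots against 1.82 to 28.3 FPKM in shoots, and the 9 loci spanning at most 2 bases under 500, 500 included, at 0 to 167 FPKM in roots against 0.198 to 7.84 FPKM in shoots. The 12 longest members, within 2 bases of the upper limit, had medians of 6.83 FPKM in roots against 4.28 FPKM in shoots, and the 16 loci up to 3 bases over the limit had medians of 5.22 FPKM in roots against 3.69 FPKM in shoots. At the call limit, the nearest member inside on the root side was at 14.9 FPKM in roots against 2.95 FPKM in shoots, and the nearest outside at 3.19 FPKM in roots against 0.0571 FPKM in shoots. On the shoot side these were 0.0897 FPKM in roots against 3.36 FPKM in shoots inside, and 0.0170 FPKM in roots against 3.04 FPKM in shoots outside. Low members with large folds without the pseudocount thus fell on either side of the call.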

How the data were processed

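The polyA RNA library of roots was compared with that of shoots in the FPKM table that the authors deposited, with 1 value per assembled locus and organ. The submitters' processing notes name TopHat, Cufflinks and Cuffdiff. Not given in the sources used here are their versions and settings, the scaling between libraries and the treatment of reads with several matches. Positions refer to B73 RefGen_v2, per the file headers. Each value column carries its organ's name, and 0 others held values of a sample.

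Members were taken by span and position. Loci sharing a position were summed into 1 entry for neighbour comparisons, flanks are the entries before and after by start, and a gap is start minus end. The worth of 1 fragment was fitted to 171 low loci in root and 113 in shoot as a constant divided by span less an offset of 230 and 220 bases. It was 0.00766 FPKM in root and 0.00884 FPKM in shoot at 1000 effective bases. Of these loci, 62.0% in root and 56.6% in shoot fell within 0.1 of a whole fragment, where values without steps and without a fit would give 20%. The constant and offset were chosen on these same loci to bring them near whole numbers, so 20% is too low a reference. Calls use a pseudocount of 1 FPKM and 4-fold, and detection 1 FPKM.

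Named members are the 10 with the largest ratio toward each organ, the 5 most abundant per organ, the 5 most abundant balanced ones, the highest of those listed at 0, pairs within 10000 bases called alike, the closest opposite flanks and balanced members between biased flanks. Runs and the most abundant biased members were picked after their values were seen, and all members and rules were chosen with earlier results of these data known. The gene table at hand belongs to a later assembly and names genes by symbol, which the locus identifiers of members cannot match. No match by position or sequence was tried. Computing used scipy 1.17.1, numpy 2.4.6, pandas 2.3.3 and matplotlib 3.10.9 in Python 3.11.15, and the fit, the calls and the flank count were tested on simulated data. The simulated loci for the fit held whole fragments without noise or introns. That test therefore does not tell the error of the fragment numbers given here.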

Additional observations from a re-analysis of the deposited data

How the results depend on the processing

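With 1 library per organ, depth limits the low values and no spread between plants was measured. Counts of biased members followed the pseudocount and the threshold. A pseudocount of 0.1 FPKM gave 259 members higher in root and 270 in shoot (14.4% and 15% of members, against 6.38% and 10.9% of all loci), and one of 5 FPKM gave 63 and 83 (3.51% and 4.62%, against 1.4% and 3.61%). A threshold of 2-fold gave 364 and 322, which puts root ahead (20.3% and 17.9%, against 11.9% and 15%), and 8-fold gave 62 and 95 (3.45% and 5.29%, against 1.28% and 3.5%). The other 5 alternatives gave 107 to 132 for root and 113 to 154 for shoot. Root took 39.5% to 53.1% of the calls. The next counts, of members in a single organ, were not computed over all listed loci. They do not tell whether compact loci stand out at these settings. Detection at 0.1 FPKM left 59 members in root alone and 80 in shoot alone, at 5 FPKM shoot alone held 190, and requiring 5 FPKM in the higher organ left 49 and 78. The median log2 ratio was 0.16 with that requirement, 0.13 with each library summed to 1000000 and -0.029 with root divided by 1.07, the middle root to shoot ratio among loci that both organs reached, so its sign is not settled by these data. Members with a flank of their own bias numbered 85 for root and 114 for shoot with a pseudocount of 0.1 FPKM, 19 and 13 with 5 FPKM, 145 and 135 at 2-fold, and 18 and 15 at 8-fold. Within 10000 bases they numbered 16 and 17, and with sums of 1000000 there were 18 for shoot. As a share of biased members, over these settings and centring, this was 28.2% to 39.8% for root and 15.7% to 42.2% for shoot, each time above that of all nuclear positions with the call. Fewer or more loci pass each of these rules by construction. Leaving out members that overlap another locus changed nothing, since 0 did. No paired analysis was possible because each organ has 1 library, and for the same reason no library could be left out.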

Other observations

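Compact loci were found on all 10 chromosomes at similar shares. They made up 5.24% of the listed loci of chromosome 5 and 6.58% of those of chromosome 10, the lowest and the highest share. On chromosome 10, 14 of 130 members (10.8%) leaned to root and 10 (7.69%) to shoot by the 4-fold call, against 4.91% and 6.93% of all listed loci there. On chromosome 3, 15 of 186 members (8.06%) leaned to root and 23 (12.4%) to shoot, against 3.87% and 7.02%. Chromosome 8 had 9 of 164 members (5.49%) leaning to root and 7 (4.27%) to shoot, against 2.64% and 5.98%. The share of members higher in root was above that of all listed loci on each of the 10 chromosomes.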
